A study of Homo sapiens with 5 samples.

Results

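RNA of the enzymes that carry sterol synthesis from farnesyl diphosphate through squalene to cholesterol was compared between leukaemia cells growing in the brain and leukaemia cells growing in the spleen of the same kind of host. The 9 genes, in pathway order, were FDFT1, SQLE, LSS, CYP51A1, MSMO1, NSDHL, EBP, SC5D and DHCR7. They were chosen as steps of the pathway, with earlier results of these data known, and were matched by Ensembl identifier. All 9 were present among the 65217 human gene identifiers of the deposited count table. The cells were REH, an established human B precursor acute lymphoblastic leukaemia line with the t(12;21) ETV6-RUNX1 (TEL-AML1) fusion, and the hosts were immunodeficient JAX NOD.Cg-PrkdcscidIl2rgtm1Wjl/SzJ (NSG) mice aged 6 to 10 weeks. The brain group comprised 3 libraries of REH cells taken from the leptomeninges, the inner membranes around the brain, and the spleen group comprised 2 libraries of REH cells taken from the spleen. Both groups shared the cell line, the mouse strain and Ficoll purification, and the labels name no drug or genetic change. Each library pooled RNA of 5 mice, and the pools were made on 3 occasions. The p-values below therefore measure the spread between pools of 1 cell line, not between single mice or between patients. Per the labels the spleen pool of the third occasion did not pass quality control, and it was not analysed here.

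Cholesterol is assembled in the endoplasmic reticulum. Squalene synthase commits the isoprenoid precursor to sterols, squalene is oxidised and folded into lanosterol, and a chain of demethylation, isomerisation, desaturation and reduction steps turns lanosterol into cholesterol. When sterols run low, sterol regulatory element binding proteins (SREBPs) are cut from their membrane anchor and switch on these genes, together with those of the earlier mevalonate steps and of cholesterol uptake. The SREBPs do so alongside the CCAAT-binding factor NF-Y and the GC-box factor SP1.

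The libraries held between 38387991 and 48764202 estimated counts on human genes. Of 8 B precursor markers, 7 were counted and VPREB1 was at 0 in every library. Their summed level was 5326 to 5568 CPM (counts scaled to a common library size) in brain and 5664 to 5771 CPM in spleen. The summed markers of T cells, myeloid cells, erythroid cells and stroma stayed at or below 2.76 CPM in every library. Both endothelial markers were counted, and their sum was 10.3 to 17.4 CPM in brain and 1.0911 to 1.7999 CPM in spleen, nearly all of it PECAM1, since CDH5 did not exceed 0.133 CPM. Of 3 markers of glia and neurons SNAP25 was at 0, and the sum, mostly MBP, was 14.5 to 17.2 CPM in brain and 11.3 CPM in both spleen libraries. REH is the only human cell source named for these libraries, so these markers do not by themselves show human cells of other types. The part of these markers in the results below was not tested. Mouse transcripts took 5.70%, 2.58% and 2.64% of all estimated counts in brain replicates 1 to 3 and 6.33% and 8.87% in spleen replicates 1 and 2. The difference of -3.96 percentage points did not pass an exact two-sided permutation test (p = 0.2, where the smallest p that 3 against 2 libraries allow is 0.1). In bulk RNA of this kind, a mouse share from fewer host cells and one from less RNA per host cell cannot be told apart.

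In REH cells from brain, 7 of the 9 enzymes rose and 0 fell relative to cells from spleen. FDFT1 and SQLE, the entry into the sterol branch, showed the largest changes of the 9, at 4.91-fold and 4.24-fold. MSMO1, DHCR7, SC5D and CYP51A1 stood between 2.26-fold and 3.05-fold higher in brain, and LSS 1.44-fold. NSDHL and EBP, which act in the middle of the lanosterol to cholesterol chain, did not pass the test. The 7 calls stand beside a background of 6.01% of 20419 tested genes called higher in brain and 3.5% called lower, by edgeR's quasi-likelihood test with a Benjamini-Hochberg adjusted p under 0.05. For 8 of the 9 enzymes the lowest brain library exceeded the highest spleen library, as it did for 23.3% of tested genes, and for 0 of the 9 the highest brain library was below the lowest spleen library, as for 19.5% of tested genes. EBP overlapped. The median log2 fold change of the 9 was 1.31, and that of all tested genes was 0.0066. Because the 9 were chosen with earlier results of these data known, these contrasts with all genes are descriptions only. With the mouse share of each library as a covariate, FDFT1 and SQLE kept their calls and the other 5 did not, as described with each gene. The mouse share was 2.58% to 5.70% in brain and 6.33% to 8.87% in spleen, without overlap. With only 5 libraries, that fit cannot clearly tell the mouse share apart from the site. Without spleen replicate 1, 6 of the 9 were called, LSS being lost (edgeR adjusted p = 0.0546).

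**Figure D1:**
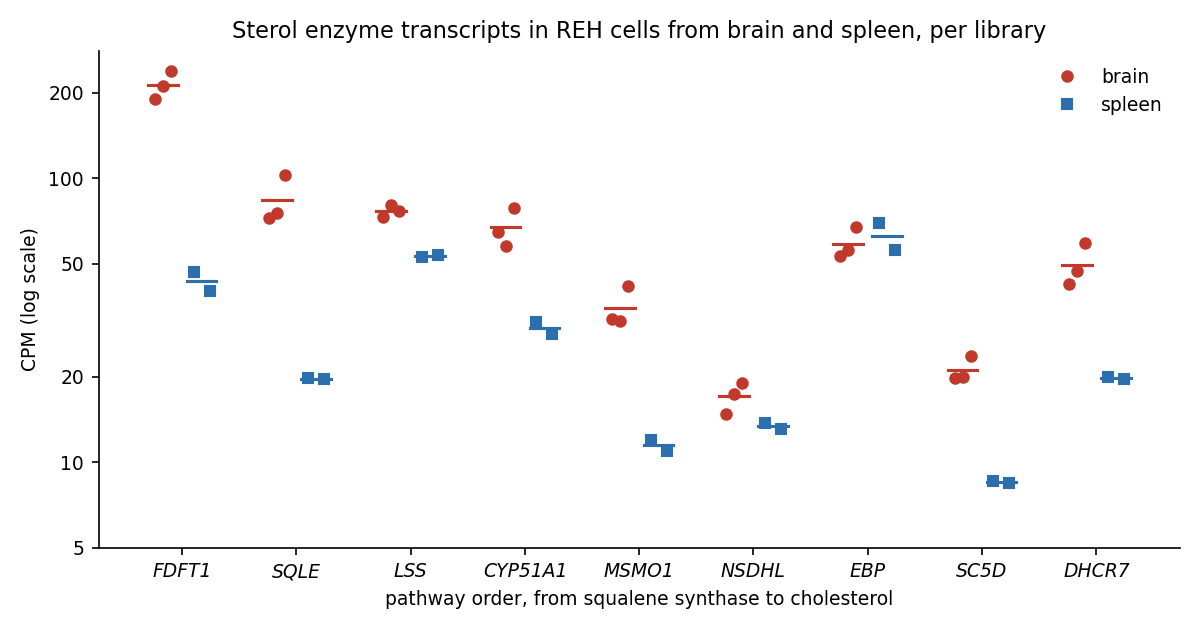
CPM of each enzyme in every library on a log axis, in pathway order, with brain libraries as red circles, spleen libraries as blue squares and horizontal bars at group means. The brain circles lie above the spleen squares for 8 of the 9 enzymes, widest apart for FDFT1 and SQLE, while those of EBP overlap.

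Promoter sequence was available for 7 of the 9 genes in RefSeq windows of GRCh38.p14, which run from 250 bases before a start site to 50 bases after it. FDFT1 and SQLE windows were not analysed here, SC5D and DHCR7 had 2 windows each, and the other 5 genes had 1. The windows below were chosen because they span called and uncalled enzymes and both ends of the CCAAT count. They are printed 5′ to 3′ on the gene's strand, with every CCAAT, or its reverse complement ATTGG, in capitals.
MSMO1 at chr4:165327419-165327718 (plus strand): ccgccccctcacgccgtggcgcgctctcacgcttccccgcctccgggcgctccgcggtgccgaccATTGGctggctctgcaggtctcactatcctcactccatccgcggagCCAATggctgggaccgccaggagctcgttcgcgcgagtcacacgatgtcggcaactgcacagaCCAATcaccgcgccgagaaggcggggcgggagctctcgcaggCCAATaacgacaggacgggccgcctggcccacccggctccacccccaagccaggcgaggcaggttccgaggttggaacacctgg
DHCR7 at chr11:71448344-71448643 (minus strand): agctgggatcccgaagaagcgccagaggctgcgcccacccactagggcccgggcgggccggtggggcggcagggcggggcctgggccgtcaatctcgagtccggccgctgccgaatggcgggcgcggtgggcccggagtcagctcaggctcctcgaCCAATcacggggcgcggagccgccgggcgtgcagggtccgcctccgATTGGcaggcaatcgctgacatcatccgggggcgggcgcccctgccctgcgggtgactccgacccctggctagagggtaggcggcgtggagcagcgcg
CYP51A1 at chr7:92134428-92134727 (minus strand): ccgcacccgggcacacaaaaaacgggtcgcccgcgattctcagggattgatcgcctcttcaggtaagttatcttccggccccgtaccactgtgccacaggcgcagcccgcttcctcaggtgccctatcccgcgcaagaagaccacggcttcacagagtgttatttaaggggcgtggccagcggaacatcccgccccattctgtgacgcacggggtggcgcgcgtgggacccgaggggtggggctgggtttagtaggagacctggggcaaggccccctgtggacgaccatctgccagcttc
NSDHL at chrX:152830813-152831112 (plus strand): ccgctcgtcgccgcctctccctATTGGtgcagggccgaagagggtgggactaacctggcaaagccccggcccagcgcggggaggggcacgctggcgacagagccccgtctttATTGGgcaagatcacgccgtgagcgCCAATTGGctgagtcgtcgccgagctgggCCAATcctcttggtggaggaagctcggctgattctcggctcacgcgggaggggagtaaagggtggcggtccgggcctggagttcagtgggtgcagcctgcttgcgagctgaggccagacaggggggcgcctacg
EBP at chrX:48521558-48521857 (plus strand): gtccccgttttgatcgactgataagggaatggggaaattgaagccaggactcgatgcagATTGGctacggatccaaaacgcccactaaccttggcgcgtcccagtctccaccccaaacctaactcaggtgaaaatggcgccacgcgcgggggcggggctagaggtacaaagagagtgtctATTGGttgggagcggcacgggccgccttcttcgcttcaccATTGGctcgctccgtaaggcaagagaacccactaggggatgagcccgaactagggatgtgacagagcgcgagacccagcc
The MSMO1 window held 4 CCAAT matches over both strands and the printed DHCR7 window 2. The other DHCR7 window, not printed, held 0 CCAAT matches. The CYP51A1 window also held 0, so its letters are all in lower case. The windows of the 2 uncalled enzymes held 5 in NSDHL and 3 in EBP. In NSDHL a forward and a reverse match share bases, which gives the capital run of CCAATTGG.

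CCAAT, searched on both strands, occurred in 7 of the 9 windows, from 6 of the 7 genes with a window. It occurred in 34.6% of all 35116 RefSeq windows of the same length. At least 3 matches were found in 3 of the 7 genes and in 3.26% of all windows. GGGCGG, the core of the SP1 box, occurred in 7 of the 9 windows (6 of the 7 genes) and in 44.95% of all windows. The E-box CACGTG occurred in 3 of the 9 windows (2 of the 7 genes, LSS and SC5D) and in 7.26% of all windows. No CCAAT match overlapped another of these motifs. The LSS window held 7 GGGCGG matches and 1 CCAAT match. TCACNCCAC, an SREBP-type sterol regulatory element, occurred in 0 of the 7 genes and in 1.13% of all windows, and its stricter form TCACCCCAC in 0 of the 7 and in 0.43%. These counts describe letters within the windows only.

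FDFT1, squalene synthase, joins farnesyl diphosphate units into squalene (ENSG00000079459, GRCh38 chromosome 8, 11795573 to 11839395, plus strand). It had 190.3, 212 and 237 CPM in brain replicates 1 to 3 and 46.8 and 39.9 CPM in spleen replicates 1 and 2. CPM values were computed from the deposited human gene counts, with library sizes scaled by edgeR's TMM method. The lowest brain library was thus far above the highest spleen library, and FDFT1 ranked 11 of 20419 genes by p. Its log2 fold change was 2.30 (SE 0.136, 95% interval 1.99 to 2.60, edgeR quasi-likelihood adjusted p = 8.23e-05). Taking equal replicate numbers as 1 occasion, the log2 difference was 2.02 within the first and 2.40 within the second. The spleen libraries are numbered otherwise in the deposited data, which leaves this pairing in doubt, here and for the genes below. With the mouse share as a covariate the log2 fold change was 1.98, and FDFT1 stayed called (edgeR adjusted p = 0.00491).

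SQLE, squalene epoxidase, adds the oxygen to squalene and is a slow, regulated step of the branch (ENSG00000104549, chromosome 8, 124998497 to 125022283, plus strand). It had 72.6, 75.2 and 103 CPM in the brain libraries and 19.8 and 19.6 CPM in the spleen libraries. The spleen libraries were nearly equal, and brain replicate 3 was the highest of the 5. SQLE was higher by 2.08 on the log2 scale (SE 0.163, 95% interval 1.72 to 2.45, edgeR adjusted p = 0.000267), and the 2 within-occasion differences were 1.88 and 1.94. With the mouse share as a covariate it was 1.82 and stayed called (edgeR adjusted p = 0.0265).

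LSS, lanosterol synthase, folds the epoxide into the first sterol of the pathway (ENSG00000160285, chromosome 21, 46188141 to 46228824, minus strand). It had 72.9, 80.6 and 76.8 CPM in brain and 52.6 and 53.7 CPM in spleen. The groups did not overlap, but the step was small, and unlike most of the other enzymes LSS peaked in brain replicate 2. Its log2 fold change was 0.53 (SE 0.0947, 95% interval 0.31 to 0.74, edgeR adjusted p = 0.0119), and 0.47 and 0.58 within occasions. It was 0.45 with the mouse share as a covariate (edgeR adjusted p = 0.327).

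CYP51A1, the cytochrome P450 that demethylates lanosterol, had 64.8, 57.8 and 78.6 CPM in brain and 31.1 and 28.3 CPM in spleen (ENSG00000001630, chromosome 7, 92084987 to 92134803, minus strand). All brain libraries were above both spleen libraries. On the log2 scale the difference was 1.18 (SE 0.141, 95% interval 0.86 to 1.49, edgeR adjusted p = 0.0019), with 1.06 and 1.03 within occasions and 1.05 with the mouse share as a covariate (edgeR adjusted p = 0.114). AKAP9 overlaps CYP51A1 on the opposite strand, and its counts came to 93.4% of those of CYP51A1 over the brain libraries and to 159% over the spleen libraries. These are counts of the whole of AKAP9, and how many fall on the stretch shared with CYP51A1 was not measured. The strand setting of the counting is not given in the sources used here, so reads of that stretch cannot be told apart.

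MSMO1, the oxidase that begins removal of the remaining ring methyl groups, had 32.0, 31.5 and 41.6 CPM in brain and 12.0 and 10.99 CPM in spleen (ENSG00000052802, chromosome 4, 165327667 to 165343164, plus strand). The groups lay well apart, and its promoter window held 4 CCAAT matches. MSMO1 was higher by 1.61 (log2, SE 0.1502, 95% interval 1.27 to 1.95, edgeR adjusted p = 0.000601), with 1.41 and 1.52 within occasions. With the mouse share as a covariate it was 1.38 (edgeR adjusted p = 0.0538).

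NSDHL, the dehydrogenase that follows MSMO1 in demethylation, had 14.8, 17.4 and 19.0 CPM in brain and 13.8 and 13.1 CPM in spleen (ENSG00000147383, chromosome X, 152830967 to 152869729, plus strand). Brain libraries were above spleen libraries by a narrow margin, and brain replicate 1 was close to spleen replicate 1. The log2 fold change of 0.34 did not pass the adjusted threshold (SE 0.137, 95% interval 0.03 to 0.66, edgeR adjusted p = 0.156). The within-occasion differences were 0.11 and 0.40. With the mouse share as a covariate the log2 fold change was 0.051 (edgeR adjusted p = 0.959). NSDHL had 5 CCAAT matches in its window, the most among the 7 genes.

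EBP, the isomerase that shifts a double bond in the sterol ring, had 53.2, 55.9 and 67.1 CPM in brain and 69.3 and 55.8 CPM in spleen (ENSG00000147155, chromosome X, 48521799 to 48528716, plus strand). The groups overlapped, with the highest value in spleen replicate 1. For EBP the log2 fold change was -0.09 (SE 0.134, 95% interval -0.39 to 0.21, edgeR adjusted p = 0.74). The upper limit of 0.21 lies below the lower limits of the 7 called enzymes, the smallest of which is the 0.31 of LSS. The within-occasion differences were -0.38 and 0.0028, and with the mouse share as a covariate the log2 fold change was -0.42 and again not called. Its promoter window, printed above, held 3 CCAAT matches.

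SC5D, the desaturase of the penultimate ring step, had 19.8, 19.96 and 23.7 CPM in brain and 8.57 and 8.45 CPM in spleen (ENSG00000109929, chromosome 11, 121292681 to 121313410, plus strand). Spread within each group was small beside the distance between the groups. The log2 fold change was 1.31 (SE 0.134, 95% interval 1.01 to 1.62, edgeR adjusted p = 0.000898), with 1.205 and 1.24 within occasions. With the mouse share as a covariate it was 1.18 (edgeR adjusted p = 0.0799).

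DHCR7, the reductase that yields cholesterol and whose loss causes Smith-Lemli-Opitz syndrome, had 42.4, 47.0 and 59.1 CPM in brain and 20.004 and 19.6 CPM in spleen (ENSG00000172893, chromosome 11, 71428193 to 71452868, minus strand). Each brain library was more than both spleen libraries, and brain replicate 3 was again the highest. The log2 fold change was 1.32 (SE 0.148, 95% interval 0.99 to 1.66, edgeR adjusted p = 0.00139), with 1.08 and 1.26 within occasions and 1.02 with the mouse share as a covariate (edgeR adjusted p = 0.115). An antisense non-coding gene, ENSG00000254682, had counts equal to 15.2% of those of DHCR7 in brain and 20.3% in spleen. These are counts of that whole gene, and reads of the stretch shared with DHCR7 cannot be told apart without the strand setting.

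**Figure D2:**
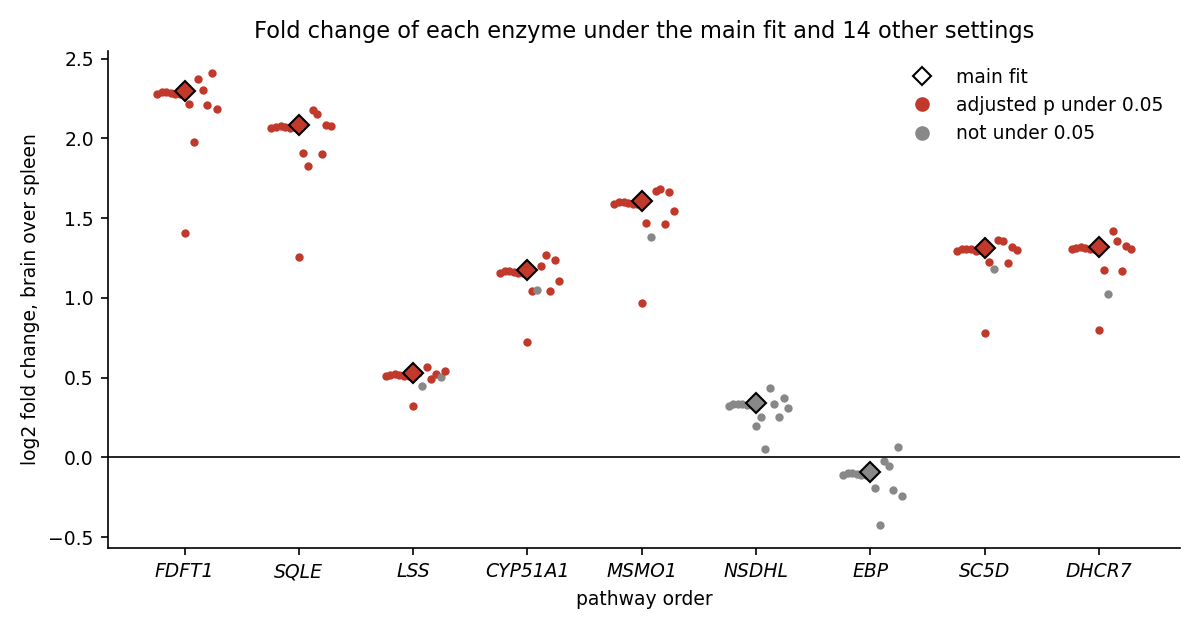
The log2 fold change of each enzyme, brain over spleen, from the fit described above (diamonds) and under 14 other settings (small points), coloured red where the adjusted p was under 0.05 and grey where it was not. FDFT1 and SQLE stayed red in all 14, the grey points among CYP51A1, MSMO1, SC5D and DHCR7 are the fits with the mouse share as a covariate, and EBP lay on both sides of 0.

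The covariate fit called fewer genes over the whole table, with 114 genes higher and 11 lower in brain. Its SEs were larger for each of the 9 enzymes. For CYP51A1 the SE was 0.241 against 0.141, with log2 fold changes of 1.05 and 1.18. The log2 fold changes of FDFT1 over the 14 other settings ran from 1.40 to 2.41, and those of SQLE from 1.26 to 2.18. The lowest of these came from the authors' own rlog values, a log2 scale that shrinks differences.

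Levels of different genes were compared per transcript length, in the TPM deposited by the authors, a share of all transcripts after division by length, summed over the transcripts of a gene. FDFT1 averaged 170.1 ± 24.7 TPM in brain (SD, n = 3) and 31.1 ± 1.73 TPM in spleen (n = 2). EBP averaged 97.8 ± 18.3 TPM in brain and 100.1 ± 6.71 TPM in spleen. FDFT1 was thus the most abundant of the 9 in brain and EBP the most abundant in spleen. These sums include transcripts not annotated as coding. Coding transcripts made up on average 29.04% of the EBP level in spleen and 87.8% of that of FDFT1.

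In brain the order of mean levels was FDFT1, EBP, SQLE, LSS, CYP51A1, DHCR7, MSMO1, SC5D and NSDHL. Of the neighbours in that order, FDFT1 and EBP, EBP and SQLE, SQLE and LSS, and MSMO1 and SC5D had library ranges that did not overlap, whereas the stretch from LSS to MSMO1 and the pair SC5D and NSDHL overlapped. SQLE averaged 49.7 TPM in brain against 11.8 TPM in spleen, and NSDHL 13.7 TPM against 10.6 TPM. In spleen the order was EBP, FDFT1, LSS, CYP51A1, SQLE, NSDHL, DHCR7, MSMO1 and SC5D. There the ranges of CYP51A1 and SQLE overlapped, and so did those of NSDHL and DHCR7. SQLE therefore ranked 3 of 9 in brain and 5 of 9 in spleen, and NSDHL ranked 9 in brain and 6 in spleen.

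Summed over the 9 enzymes, the level was 383, 461 and 530 TPM in the brain libraries and 213 and 209 TPM in the spleen libraries. FDFT1 made up 36.2% to 38.02% of that sum in brain, against 15.2% and 14.3% in spleen. EBP made up 20.8% to 21.9% in brain and 49.1% and 45.6% in spleen. Brain replicate 3 had the highest TPM of all libraries for 8 of the 9 enzymes, the exception being LSS.

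**Figure D3:**
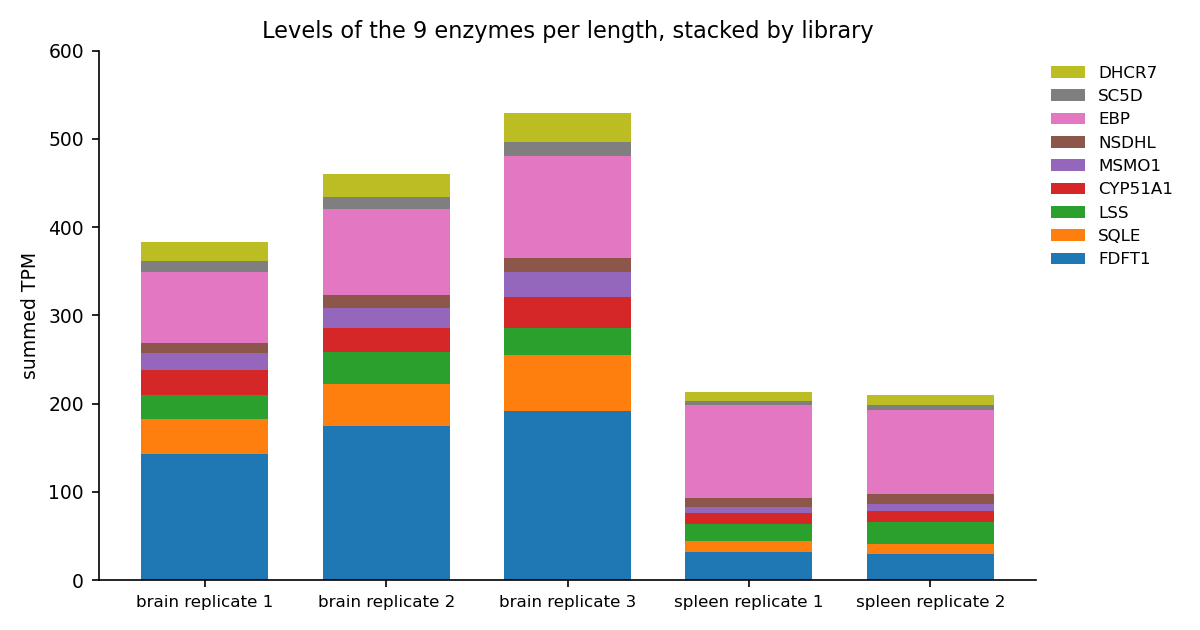
Stacked bars of the TPM of the 9 enzymes in each library, brain on the left and spleen on the right, on a linear axis from 0. The brain bars reach 383 to 530 TPM against 213 and 209 TPM in spleen, and the pink EBP segment is similar in all 5 while the blue FDFT1 segment is several times taller in brain.

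The 9 genes had 77 annotated transcripts in the tables, of which 52 had enough counts to be tested. With edgeR on transcript counts, 0 of the 52 passed an adjusted p of 0.05, as did 0 of all 75118 transcripts tested. At an unadjusted p under 0.05, 27 of the 52 were higher in brain and 0 lower, beside 4.86% of all transcripts higher. The common biological coefficient of variation was 0.552 for transcripts and 0.148 for genes. A DESeq2 Wald test of the same counts, chosen after the edgeR result was seen, called 17 of the 52 higher and 0 lower, beside 1.98% of transcripts called higher. FDFT1 held 9 of those 17, MSMO1 and DHCR7 held 2 each, and SQLE, LSS, CYP51A1 and SC5D held 1 each. NSDHL and EBP held 0.

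In FDFT1, SQLE, CYP51A1, MSMO1 and DHCR7 the reference (MANE Select) transcript carried the largest mean share of the gene's TPM in both sites. CYP51A1-201 (ENST00000003100) made up 86.8% ± 4.48 of its gene in brain (SD, n = 3) and 90.5% ± 3.68 in spleen (n = 2). DHCR7-201 made up 81.8% ± 5.83 in brain and 67.8% ± 2.17 in spleen, and DHCR7-202, coding as well, made up 6.68% ± 5.73 in brain and 22.4% ± 4.61 in spleen. For DHCR7-202 the shares of 6.48%, 1.06% and 12.5% in brain did not overlap the 19.1% and 25.6% in spleen, and its usage did not pass (unadjusted p = 0.0382, diffSpliceDGE of edgeR, adjusted p = 1). In NSDHL the leading transcript was NSDHL-203, at 68.1% ± 6.999 in brain and 74.4% ± 8.69 in spleen.

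Shifts in share were also seen among FDFT1 transcripts. FDFT1-202 held 18.2%, 19.3% and 17.1% of the gene in the brain libraries and 8.74% and 5.92% in the spleen libraries. FDFT1-209 ran the other way, at 5.64%, 5.69% and 4.91% in brain and 12.6% and 23.3% in spleen. Neither shift passed the usage test over all transcripts (edgeR diffSpliceDGE adjusted p = 0.573 for FDFT1-202 and 0.509 for FDFT1-209). FDFT1-214 (ENST00000529464), annotated as a target of nonsense-mediated decay, was the only member transcript of 52 that passed, beside 0.371% of 67088 transcripts tested for usage. It had 204, 85.1 and 80.1 estimated counts in the brain libraries and 0 in both spleen libraries. Set against a floor of 3 counts over the spleen group, and after scaling to library size, that is 87.7-fold higher in brain. The floor covers counting error only, not the sharing of reads among overlapping FDFT1 transcripts, so it is no firm lower limit. FDFT1-214 held 5.54%, 1.65% and 1.53% of the gene's TPM in the brain libraries. Its edgeR adjusted p was 0.0404, and the call was lost with the replicate number as a block (edgeR adjusted p = 0.10) and in the fits lacking brain replicate 1 (0.173), spleen replicate 1 (0.179) or spleen replicate 2 (0.179).

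EBP differed from the others in the type of transcript counted. Transcripts annotated as coding made up 28.9% of its TPM in brain and 29.04% in spleen, whereas in the other 8 genes they made up at least 69.1% in either site. EBP-201 (ENST00000276096), annotated without a defined coding sequence, held 53.4% ± 1.67 in brain and 55.2% ± 6.97 in spleen. SC5D split between SC5D-202, at 45.8% ± 15.4 in brain and 33.7% ± 10.1 in spleen, and its reference form SC5D-201, at 25.0% ± 8.47 in brain and 36.7% ± 10.2 in spleen. The ranges of both overlapped between the sites. Estimated counts share out reads among overlapping transcripts by a model, and that error is not in these tests.

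**Figure D4:**
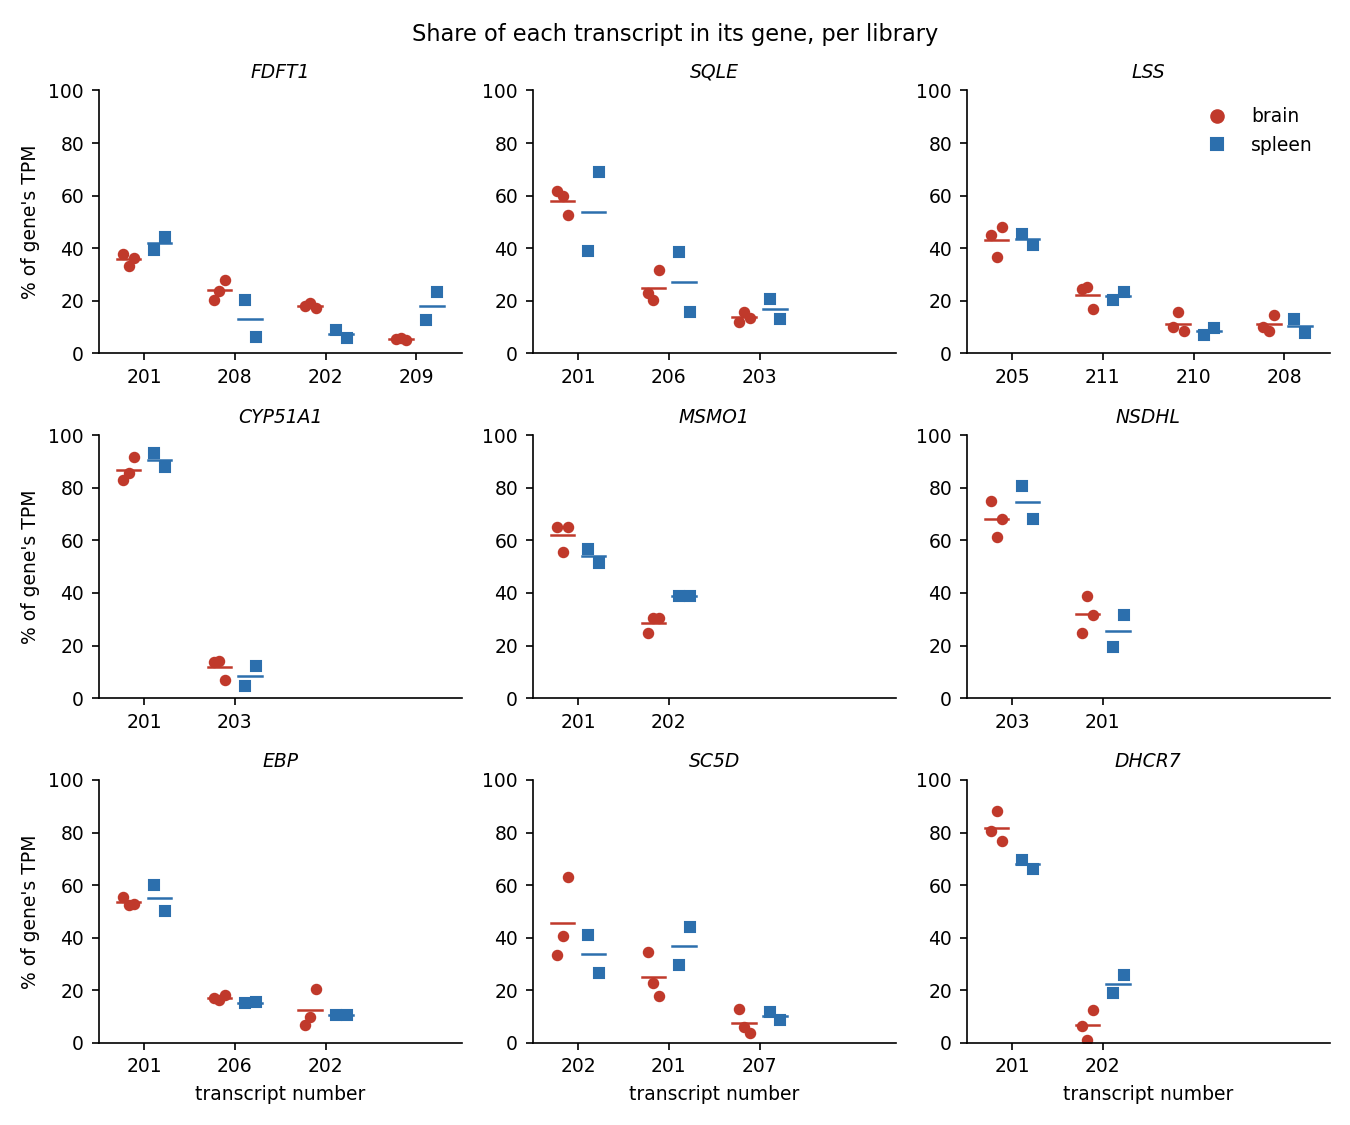
Share of each transcript in the summed TPM of its gene, in percent, for the transcripts holding at least 10% of their gene in either site, with brain libraries as red circles, spleen libraries as blue squares and bars at group means. FDFT1-202, FDFT1-209 and both DHCR7 transcripts are among those separated between the sites, while the 4 LSS transcripts overlap.

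Upstream of squalene, 4 of 9 tested mevalonate genes rose and 0 fell. HMGCS1, which makes HMG-CoA, was higher by 1.46 on the log2 scale (SE 0.127, edgeR adjusted p = 0.000439). The isomerase gene IDI1 was higher by 0.59 (edgeR adjusted p = 0.0162), a call lost without brain replicate 1 (edgeR adjusted p = 0.0677) or spleen replicate 2 (0.0578), and once the mouse share was a covariate (0.339). The median over the 9 was 0.39, below the 1.31 of the squalene to cholesterol enzymes. FDPS, whose product FDFT1 consumes, was at 156, 156 and 184 CPM in brain and 163 and 137 CPM in spleen. It overlapped between the sites and did not pass (log2 fold change 0.14, edgeR adjusted p = 0.52), and it was picked for its place beside FDFT1 after its values were seen.

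Of 3 other tested enzymes after squalene, 2 rose and 0 fell. HSD17B7, the ketone reductase that works with NSDHL, had 11.7 CPM in each of the 3 brain libraries and 6.79 and 7.34 CPM in spleen, higher by 0.73 on the log2 scale (edgeR adjusted p = 0.0134). That call was lost without brain replicate 1 (edgeR adjusted p = 0.0604), brain replicate 2 (0.0523) or spleen replicate 1 (0.0644), and with the mouse share as a covariate (0.228). TM7SF2, a sterol ring reductase, was higher by 0.42 (edgeR adjusted p = 0.0395), and its call was lost in each fit that left out 1 library (edgeR adjusted p up to 0.159), with the replicate block (0.0536), on summed transcript estimates (0.0536), on the rlog values with limma (0.0509) and with the mouse share as a covariate (0.413). LBR, which shares that reductase activity, did not pass at -0.28 (edgeR adjusted p = 0.108).

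Among SREBP control and uptake genes, 7 of 11 tested rose and 0 fell. STARD4, a sterol carrier, had the smallest p of all tested genes, at 19.6, 19.3 and 17.7 CPM in brain and 1.64 and 1.77 CPM in spleen (log2 fold change 3.47, edgeR adjusted p = 3.84e-05). SREBF1, which encodes an SREBP, was higher by 2.42 (edgeR adjusted p = 6.08e-05). Of 7 electron donors and partners, a group that includes the proteins supplying electrons to CYP51A1, SQLE, MSMO1 and SC5D, 0 passed, and 2 were higher at an unadjusted p under 0.05. The most abundant on average over the 5 libraries, though not in spleen, was MARCHF6, a ubiquitin ligase that degrades SQLE, at 0.24 (edgeR adjusted p = 0.193). Its unadjusted edgeR p of 0.04875 ranked 5155 of all 20419 tested genes. At least 5155 genes were thus under 0.05 in either direction. Of 5 tested genes of sterol modification and storage 0 passed and 1 was higher at an unadjusted p under 0.05, TMEM97 being the most abundant on average over the 5 libraries, though not in spleen (0.38, edgeR adjusted p = 0.0818).

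Over all 35 tested genes of these neighbouring lists, edgeR called 13 higher and 0 lower, with a median log2 fold change of 0.24. DESeq2's Wald test called 14 higher and 2 lower, beside 1544 higher and 1361 lower among the 16856 genes it tested. At an unadjusted p under 0.05 the genes lower in brain were PMVK, the phosphomevalonate kinase of the mevalonate steps, and LBR, named here because they alone did so. By p they ranked 2174 and 3382 of all 20419 tested genes. The count of 13 higher became 7 without brain replicate 1, 8 without brain replicate 2, 8 in either fit lacking a spleen library, and 6 with the mouse share as a covariate.

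**Figure D5:**
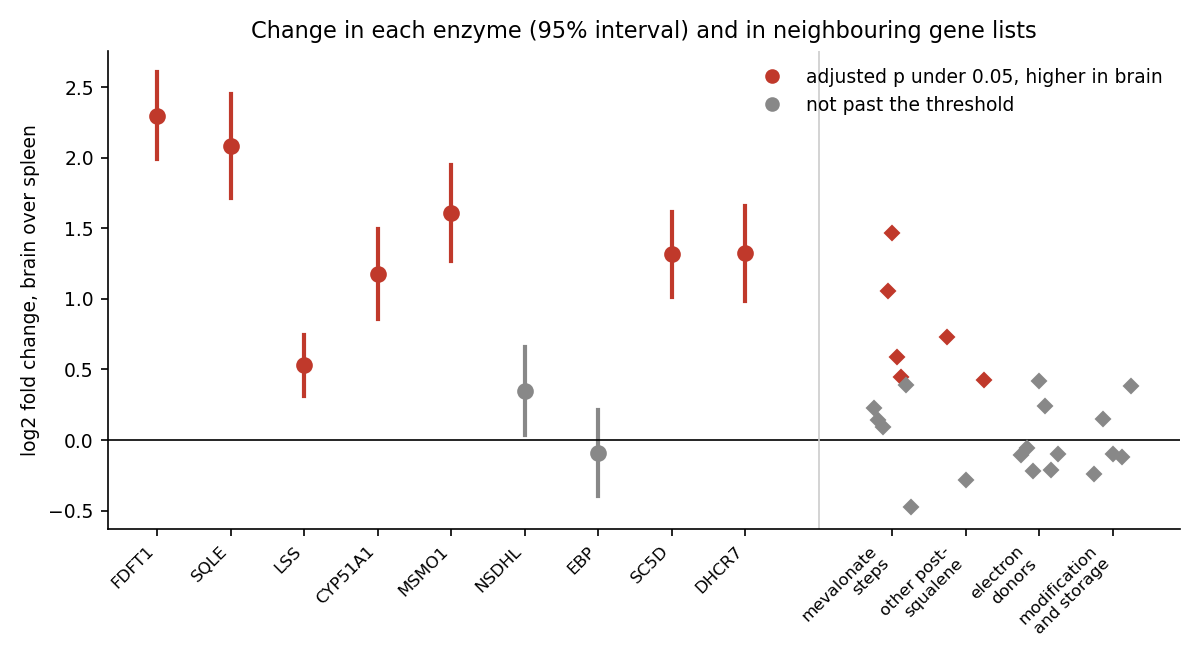
The log2 fold change, brain over spleen, of each enzyme with its 95% interval (circles and bars), and of the tested genes of 4 neighbouring lists (diamonds), red where the adjusted p was under 0.05. Among the 9 enzymes EBP and NSDHL are grey, and all electron donor and storage genes are grey and between -0.24 and 0.42.

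The genes whose levels followed the mean of the 9 enzymes most closely over the 5 libraries were found by the Euclidean distance between centred log2 CPM profiles among 12812 other genes. The closest were SYS1 at a distance of 0.116, the unnamed gene ENSG00000263394 at 0.128, PLEKHG1 at 0.132, TSC22D3 at 0.133 and BTG2 at 0.164. The mean profile of the enzymes was 0.33, 0.40 and 0.66 in the brain libraries and -0.65 and -0.75 in the spleen libraries, so likeness to it includes a high value in brain replicate 3. The profiles share libraries and depth, and the distances are descriptions of 5 points.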

How the data were processed

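The members and lists were chosen with earlier results of these data known. Per the submitters' processing notes, reads were handled with bcl2fastq 1.8.4, cutadapt 1.5, kallisto 0.42.4 and DESeq2, against GRCh38 and GRCm38, and per the labels' protocols the libraries were stranded and poly(A) selected. Per the file headers, the deposited transcript tables hold estimated counts and TPM for 198457 human and 103639 mouse transcripts. The authors' table of genes gives whole-number estimated counts, and a second deposited table holds log2 (rlog) values. Each gene table holds 1 column of no sample here, which was not used.

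Symbols came from GENCODE 44, which matched 56322 gene identifiers (86.4%). Counts were tested with edgeR 4.0.16 in R 4.3.3, using filterByExpr, TMM scaling and the quasi-likelihood F test with site as the only term, adjusted over the 20419 genes kept. The fit had 3 residual degrees of freedom. Transcripts were tested likewise, and their usage with diffSpliceDGE, after transcript estimates were rounded to whole numbers. DESeq2 1.42.0 and limma 3.58.1 served as alternatives. Fits were tested on simulated data. Each edgeR SE was derived as the absolute log2 fold change over the square root of the F statistic. The 95% intervals were built from that SE with a t distribution. They include the spread between pools, whereas floors cover counting error only. All 9 members are named. Up to 3 called genes of each neighbouring list with the smallest p are named, or the most abundant over the 5 libraries where none passed, and so are the 5 nearest profiles. Some genes taken by this rule go unreported. Mouse genes were not analysed here one by one. The neighbouring gene FDPS and the genes lower at an unadjusted p were named after their values were seen.

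The labels tie each replicate number to an occasion, so same-numbered libraries were taken as pairs. The spleen columns carry other numbers in the files than in the labels, which leaves the pairing in doubt. The deviations of same-numbered libraries from their group means correlated at -0.025 for number 1 and 0.146 for number 2. Brain replicate 3, which has no partner here, correlated at 0.147 with spleen replicate 1. With 2 spleen libraries the spleen deviations mirror each other, so these values cannot decide whether the pairing holds.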

Additional observations from a re-analysis of the deposited data

How the results depend on the processing

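The 7 calls among the 9 enzymes were unchanged in number under other scalings, filters, DESeq2's Wald test, summed transcript estimates, the authors' log2 values and the replicate block. With the mouse share, which did not overlap between the sites, as a covariate, 2 enzymes were called, and leaving out 1 library gave 6 to 7. With the replicate block, 7 enzymes, 9 neighbouring genes higher and 1 lower were called, TM7SF2 was lost (edgeR adjusted p = 0.0536), and usage calls fell to 0. It changed no call among the 9 enzymes. Leaving out 1 library, the log2 fold change of EBP ran from -0.24 to 0.066, changing sign without spleen replicate 1, and the cause was not tested. Neighbouring genes higher in brain numbered 6 with the mouse share as a covariate and 7 to 9 when 1 library was left out. Neighbouring genes lower in brain numbered 1 under upper-quartile scaling, without a filter, with a filter of 1 CPM in 2 libraries and with the replicate block, 2 by DESeq2's Wald test, and 0 to 1 when 1 library was left out. The usage calls ranged from 0 to 1 when 1 library was left out. DESeq2's Wald test on transcripts, chosen after seeing the data, called 17. Rescaling TPM to human transcripts raised the means of both sites, that of FDFT1 to 180.4 TPM in brain and 34.3 TPM in spleen. LSS, the smallest of the 7 changes, lost its call without spleen replicate 1 (edgeR adjusted p = 0.0546). With 3 against 2 libraries the number of libraries limits the precision, and a missed threshold does not show that levels were alike.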
